A study of Chlorocebus sabaeus with 10 samples.

Results

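miR-10a and miR-10b are paralogous microRNAs (miRNAs) whose genes lie within HOX clusters, the arrays of developmental transcription factor genes that lay out the body axis. In vervet liver they were measured through 4 mature miRNAs, the 5p and the 3p arm of each hairpin: hsa-miR-10a-5p, hsa-miR-10a-3p, hsa-miR-10b-5p and hsa-miR-10b-3p. They were taken by name from the 2588 mature names of the deposited count table, where each stood on 1 row. Livers came from 10 female vervet monkeys (Chlorocebus sabaeus), 5 fed a high fructose (HFr) diet and 5 fed chow, for 6 weeks according to the methods of the study, and every animal had eaten chow beforehand. The table's 10 library columns carry running numbers that match no animal, so no library could be given a diet, and HFr and chow were not compared here. On inspection 1 of these columns held almost no reads. Each value below is the authors' total for a miRNA over all libraries, with no replicates, no spread between animals and no p-value. Intervals are at 95% and cover counting error only. They are Wilson intervals for shares, exact Poisson intervals for counts and, for ratios, limits derived from the exact binomial interval.

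A miRNA gene is transcribed as a hairpin, from which enzymes cut a short duplex. Usually the strand from 1 arm is loaded into the silencing complex and the other is degraded, and the loaded strand finds messenger RNAs mainly through its seed, the bases near its 5′ end. In humans the gene of miR-10a lies beside HOXB4 and that of miR-10b beside HOXD4, and miR-10 miRNAs are known to repress HOX genes, such as hoxb1a and hoxb3a in zebrafish and HOXD10 in human breast cancer cells. miR-10a is also known to restrain inflammatory signaling in human endothelial cells. The 5p strands of both paralogs share their seed and are nearly identical along their length. The vervet gene table (RefSeq, assembly mChlSab1.0.hap1) lists 10 HOXB genes, with HOXB4 between HOXB3 and HOXB5, and 9 HOXD genes, with HOXD3 and HOXD4 between HOXD8 and HOXD1. It holds 0 miRNA genes, so the positions of the miR-10 genes are not given.

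The pool was that of a liver: miR-122-5p, the characteristic miRNA of hepatocytes, held 45.2% of 2043164 reads and ranked 1st, and the hepatocyte markers miR-194-5p and miR-192-5p had 46304 and 17980 reads. Markers of other liver cell types were present at levels that differed within a type. Those of stellate cells and fibroblasts ranged from 42313 reads for miR-143-3p and 22258 for miR-199a-3p to 711 for miR-214-3p and 280 for miR-145-5p. The endothelial marker miR-126-3p had 20344 reads, and the leukocyte markers miR-142-3p and miR-223-3p had 1242 and 694. In bulk tissue, fewer cells of a type and less RNA per cell cannot be told apart.

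miR-10a-5p was the prevailing member. It had 3065 reads (interval 2957 to 3175), or 0.150% of all reads (interval 0.145 to 0.155%). With this count it ranked 48th, above 92.9% of the 680 names with reads. It was a moderately abundant miRNA of this tissue, since miR-122-5p exceeded it 301.0-fold and miR-126-3p exceeded it 6.64-fold (interval 6.39 to 6.90).

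The paralog miR-10b-5p had 310 reads (interval 276.4 to 346.5), or 0.0152% of all reads. It ranked 137th. miR-10a-5p thus had 9.89 times as many reads as miR-10b-5p (interval 8.79 to 11.1), and the paralogs differed by far more than counting error. Whether the ratio holds in each animal cannot be read from the pool.

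The 3p arms were minor. miR-10a-3p, the opposite strand of the miR-10a hairpin, had 82 reads (interval 65.2 to 101.8), or 0.00401% of all reads, and ranked 219th. miR-10b-3p, the opposite strand of the miR-10b hairpin, had 0 reads, with an upper Wilson limit of 0.000188% of all reads. With 3 reads over the pool set in place of the 0, miR-10a-3p would be 27.3-fold higher than miR-10b-3p. This value leaves out counting error. By level the order was miR-10a-5p, miR-10b-5p, miR-10a-3p and miR-10b-3p, and no neighbours in it had overlapping intervals. miR-10b-5p had 3.78 times as many reads as miR-10a-3p (interval 2.95 to 4.88), so the main strand of the weaker paralog still exceeded the minor strand of the stronger.

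Together the 4 members held 3457 reads, or 0.169% of the pool (interval 0.164 to 0.175%). Of these reads, 88.7% were miR-10a-5p (interval 87.6 to 89.7%), 8.97% were miR-10b-5p (interval 8.06 to 9.97%) and 2.37% were miR-10a-3p (interval 1.92 to 2.93%). Counted by hairpin, mir-10a gave 91.0% of the family's reads.

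**Figure D1:**
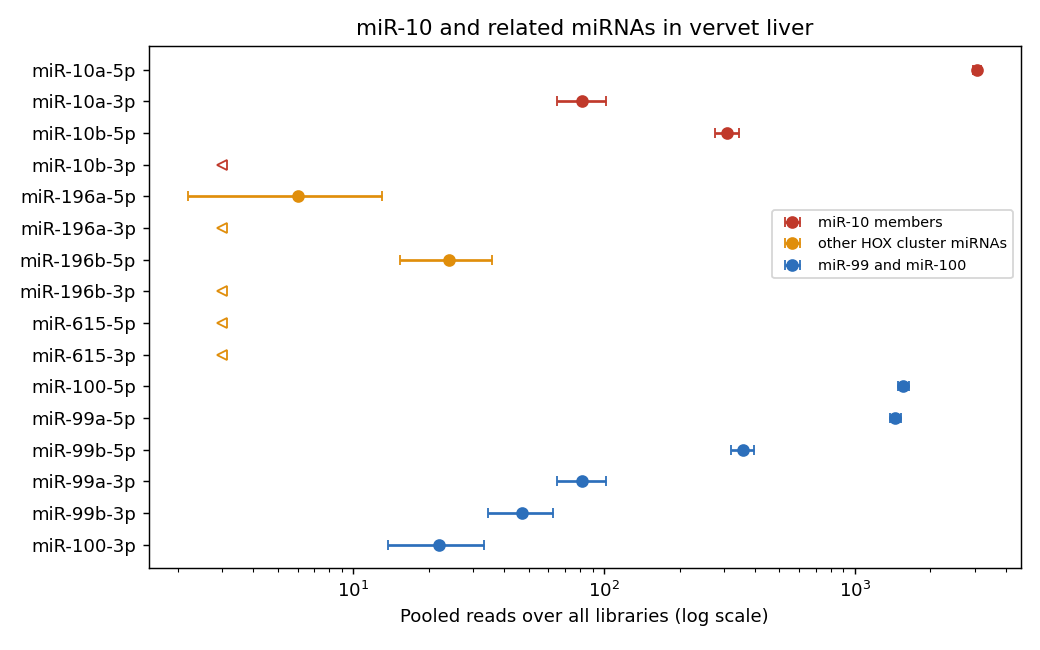
Pooled reads over all libraries (x axis, log scale) of the miR-10 members, the other miRNAs of HOX clusters and miR-99 and miR-100. Points are counts, bars are 95% exact Poisson intervals, and open triangles are names with 0 reads, drawn at 3 reads. miR-10a-5p, with 3065 reads, lies farthest to the right, and miR-10b-5p lies at 310.

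Both hairpins favored the 5p arm. In mir-10a it held 97.4% of 3147 reads (interval 96.8 to 97.9%), so that miR-10a-5p exceeded miR-10a-3p 37.4-fold (interval 30.0 to 47.1). In mir-10b it held all 310 reads, with an upper Wilson limit of 1.22% for the 3p share. With 3 reads set in place of the 0, miR-10b-5p would be 103.3-fold higher than miR-10b-3p, again without counting error. The 5p share of mir-10b was higher than that of mir-10a by 2.61 percentage points (Newcombe interval 1.28 to 3.22), a difference larger than counting error. With the arm ratio of mir-10a, the 310 reads of miR-10b-5p would go with 8.29 reads of miR-10b-3p, against the 0 found. Both comparisons take all 310 reads as those of miR-10b-5p, and whether some belong to miR-10a-5p was not tested.

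Such arm use was common in these livers. Of 179 hairpins with at least 100 reads and both arms named, the major arm was 5p in 100, and the major arm held a median of 99.1% of reads. The share in mir-10a lay below this median, with 108 hairpins above it and 70 below. It was near the median of 97.6% for hairpins with 0.5 to 2 times its reads and names on 1 row each. Of those, 17 lay above it and 14 below. A minor arm without reads was found in 20 of the 179 (11.2%). At the depth of mir-10b, between 0.5 and 2 times its reads, it was found in 7 of 50 hairpins, mir-10b included, and the median count of the minor arm was 4.5 reads. Some hairpins give a mature miRNA that another hairpin also gives. Among the 131 of the 179 hairpins whose names stood on 1 row each, as those of miR-10 did, 13 had a minor arm at 0. Of these, 6 had more reads than mir-10b: mir-146a (1746 reads), mir-221 (1574), mir-15a (1397), mir-155 (824), mir-619 (779) and mir-19a (319). The absence of miR-10b-3p was thus shared with better covered hairpins. Reads were counted under human names, and whether the vervet strand differs from the human one was not tested.

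**Figure D2:**
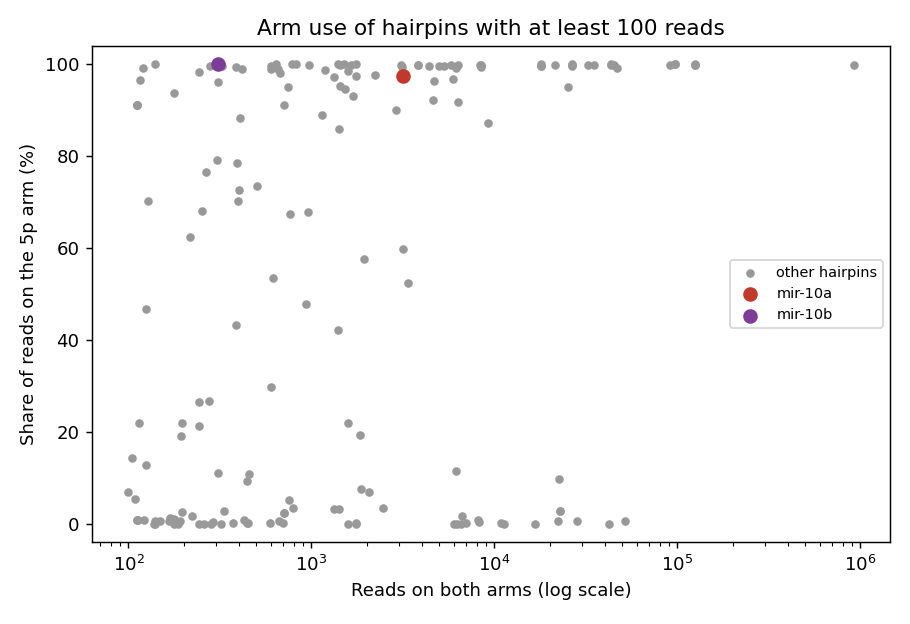
Share of reads on the 5p arm (y axis, %) against the reads on both arms (x axis, log scale) for the 179 hairpins with at least 100 reads, 1 point each. mir-10a at 97.4% and mir-10b at 100% lie in the upper band, where the 5p arm prevails.

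The ratio between the paralogs was also set beside that of other names that differ only in the letter a or b, a comparison chosen after the values were seen. There were 36 such pairs with at least 100 reads on the higher name, counted by arm. The miR-10 pair is among these 36 and enters their median. The name with the letter a was higher in 22, that with b in 12, and 2 pairs were equal. The median ratio of the higher to the lower name was 10.5, with names at 0 reads set to 3. The ratio of 9.89 for miR-10 was exceeded in 18 pairs and not reached in 17, so it lay in the middle of the range. On either side of it were miR-374-3p, with 167 reads for a and 15 for b, and miR-23-3p, with 112 reads for a and 661 for b. Names with the same number need not share an origin or a sequence to the same degree. The 2 equal pairs were miR-199-3p, with 22258 reads for each name, and miR-517-3p, with 111. Both names of each were counted at the same hairpins, and these pairs are among the 17.

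**Figure D3:**
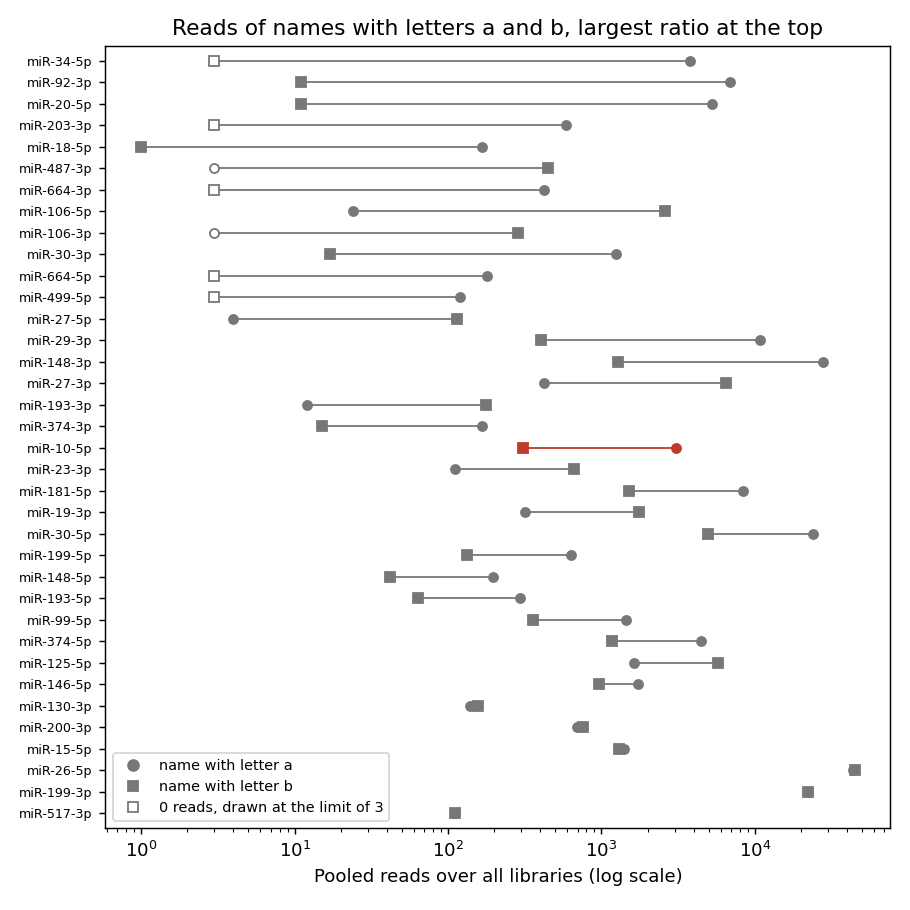
Pooled reads (x axis, log scale) of the 36 pairs of names that differ only in the letter a (circles) or b (squares), by arm, ordered by the ratio of the higher to the lower. Open symbols mark 0 reads, drawn at 3, and the miR-10 pair, in red, stands near the middle of the order with 3065 and 310 reads.

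Reads of the near-identical 5p strands can be assigned to the wrong paralog where a base is misread, and how mismatches were treated is not given in the sources used here. The 310 reads of miR-10b-5p amount to 9.19% of the 3375 reads on both 5p strands (interval 8.26 to 10.2%), and the 3p arms, which differ more, gave 82 reads for mir-10a and 0 for mir-10b. The part of misassigned reads in the count of miR-10b-5p was not tested.

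Other miRNAs of the HOX clusters were scarce. miR-196a and miR-196b, whose genes lie in the HOXB, HOXC and HOXA clusters and which are known to repress HOXB8 in the mouse, and miR-615, which lies in HOXC5, were examined on both arms. Of these 6 names 2 had reads, beside 680 of all 2588 names. A count of 0 was the usual outcome, found for 73.7% of all names. miR-196b-5p had 24 reads (interval 15.4 to 35.7) and miR-196a-5p had 6 (interval 2.20 to 13.1) on the better covered of its precursor rows, while miR-196a-3p, miR-196b-3p, miR-615-5p and miR-615-3p had 0. The 4 miR-10 members therefore held 99.1% of the 3487 reads of HOX cluster miRNAs (interval 98.8 to 99.4%). miR-10a-5p exceeded miR-196b-5p 127.7-fold (interval 85.7 to 199.6), and miR-10b-5p exceeded it 12.9-fold (interval 8.52 to 20.5).

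miR-99a, miR-99b and miR-100 are regarded as distant relatives of miR-10, resemble it in sequence but carry another seed and are known to repress MTOR. On the 5p arm miR-100-5p had 1556 reads, miR-99a-5p had 1447 and miR-99b-5p had 358. miR-10a-5p exceeded each of them, by 1.97-fold over miR-100-5p (interval 1.85 to 2.10), by 2.12-fold over miR-99a-5p (interval 1.99 to 2.26) and by 8.56-fold over miR-99b-5p (interval 7.67 to 9.58). miR-10b-5p was the lowest of the 5 strands, although its difference from miR-99b-5p was within counting error (ratio of miR-99b-5p to miR-10b-5p 1.15, interval 0.989 to 1.35). Summed over members, the 5p reads of miR-10 (3375) and of miR-99 and miR-100 (3361) differed by less than counting error, with a ratio of 1.004 (interval 0.957 to 1.05).

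The names nearest to the members in pooled count were found as the 2 next above and the 2 next below. For miR-10a-5p these were miR-98-5p (3093 reads) and miR-186-5p (3085), and miR-425-5p (3062) and miR-106b-5p (2615), of which the first 3 could not be told from it by counting error. For miR-10b-5p they were miR-19a-3p and miR-429 (319 each), and miR-483-3p (309) and miR-129-5p (307), and 22 names in all lay within its counting error. miR-10a-3p had the same 82 reads as miR-192-3p, miR-493-3p and miR-99a-3p. It stood below miR-132-3p and miR-29c-5p (83 each) and above miR-1323 and miR-26b-3p (81 each), and 44 names lay within its counting error. By counting error alone, the rank of miR-10a-5p in the pool was thus set to within a few places, whereas those of miR-10b-5p and miR-10a-3p were not. How ranks vary between animals was not tested.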

How the data were processed

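Total liver RNA of 10 animals was made into Illumina TruSeq small RNA libraries. According to the methods, these were sequenced on a GAIIx and quantified with miRDeep2, and cutadapt 1.10 and Bowtie appear in the submitters' processing notes. The genome build, miRNA database release and mismatch settings were not given in the sources used here. The authors deposited raw read counts for each mature miRNA at each precursor, and their total over all libraries was used. The 20 columns of single libraries (raw and normalized) match no sample and were used in no computation. For a name on several rows the highest row was kept, giving 2043164 reads over 2588 names. Adapter ligation differs between miRNAs, so comparisons describe reads, not molecules. Reads carry no stated molecular identifiers.

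For arms, the highest row per arm of a hairpin was used. Members and lists were chosen with earlier results of these data known. Named were the members, the other miRNAs of HOX clusters, miR-99 and miR-100, miR-122-5p, cell type markers and each member's 2 nearest names on either side by count. The hairpins with a minor arm at 0 and the pairs named beside miR-10 were chosen after their values were seen. Mature sequences were not used here. The Wilson intervals were checked by simulation, with 20 random pools of 403 names, and 94.7% of them held the true share. This check covers the computation for counting error only, not the spread between libraries or animals. Computations used Python 3.11.15, numpy 2.4.6 and scipy 1.17.1.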

Additional observations from a re-analysis of the deposited data

How the results depend on the processing

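The share of the miR-10 members was 0.169%, and it was 0.308% without miR-122-5p in the denominator. With names of the same arm and identical counts at the same precursors counted once, it was 0.171%. It was 0.129% when all precursor rows of each name were added. That denominator of 2669761 reads, against 2043164, can count the same reads at several rows. For miR-199a-3p, for instance, it held 66678 reads in place of 22258. The share of HOX cluster miRNAs went from 0.171% to 0.131% with all rows added. The shifts of the miR-10 share come from the denominator, since each miR-10 name stands on 1 row. For the same reason, adding rows could not change the ratio of miR-10a to miR-10b, which stayed at 9.89. With both arms of each hairpin added the ratio was 10.2, within its interval. Moving 1 read to the minor arm gave a 5p share of 97.4% for mir-10a and 99.7% for mir-10b. The ranks of miR-10a-5p, miR-10b-5p and miR-10a-3p became 49, 141 and 228 with all rows added. Over hairpins the major arm held a median of 99.0% at a minimum of 10 reads, 99.5% at 1000 reads and 98.3% over hairpins whose names stand on 1 row each, the last chosen after seeing the data. Of the 5 detected HOX cluster names, 4 had 10 reads or more, beside 403 of all 680 names with reads. No paired analysis was possible because no library column matches a sample. Columns matched to no sample were kept out of every computation, so libraries were not left out in turn, and how far 1 library decides a pooled value was not tested. Depth limits miR-10a-3p, whose 82 reads have an interval of 65.2 to 101.8.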

Other observations

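The hairpins of miR-99 and miR-100, the relatives of miR-10, also favored the 5p arm, to differing degrees. The 3p arm held 11.6% of reads in mir-99b (interval 8.84 to 15.1%), 5.36% in mir-99a (interval 4.34 to 6.61%) and 1.39% in mir-100 (interval 0.922 to 2.10%), against 2.61% in mir-10a (interval 2.10 to 3.22%) and 0 of 310 reads in mir-10b. In reads, miR-99a-3p had 82, miR-99b-3p 47 and miR-100-3p 22. mir-99a thus gave the same number of 3p reads as mir-10a from fewer 5p reads.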
